A study of Mus musculus with 81 samples.

Results

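The granzymes, perforin and the natural killer receptor gene Ncr1 were followed through 27 groups of sorted mouse macrophages and progenitors with and without Irf8. Of the 10 genes listed (Gzma, Gzmb, Gzmc, Gzmd, Gzme, Gzmf, Gzmg, Gzmk, Prf1 and Ncr1), 9 had an array probe annotated to that gene alone, out of 22180 genes with such a probe. Gzme was covered only by a probe annotated to Gzmd as well, and that probe was assigned to neither gene. The genes had been picked from these arrays for 2 patterns, the levels of Gzmd and its neighbours in the yolk sac population A1 and those of Gzma and Gzmb in adult kidney, by genotype. Their levels there are therefore given as a description, with no test. Tests are given for knockout against wild type in 10 other populations, for 5 comparisons of sort gate or age in liver and for 2 differences of knockout effects in liver.

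Granzymes are serine proteases that cytotoxic lymphocytes and natural killer cells store in granules and release onto a target cell. Perforin, encoded by Prf1, forms the pores through which they enter the target, and Ncr1 encodes the activating receptor NKp46 of natural killer cells and some other innate lymphoid cells. Irf8 encodes an interferon regulatory factor, a DNA-binding protein on which the development of macrophages and dendritic cells depends.

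The 81 arrays gave 80 samples, 41 from 14 wild-type groups and 39 from 13 Irf8 knockout groups. At E8 the yolk sac gave erythro-myeloid progenitors, of wild type only, and at E9.5 it gave the progenitor populations named A1 and A2. At E14 the groups were microglia of the brain, Kupffer cells and CD11bhigh macrophages of the liver, and CD11bhigh and F4/80high macrophages of the kidney. Adults of 6 weeks gave these same 5 populations and Langerhans cells of the skin. All groups held 3 samples, except that F4/80high macrophages of E14 wild-type kidney had 2. The labels give no strain or knockout allele and do not say which samples came from separate animals, so p-values measure the spread between these samples, which may be technical. At E14 the descriptions give the same replicate number to all 3 wild-type samples of Kupffer cells and of liver CD11bhigh macrophages, and to 2 of the 3 knockout liver CD11bhigh samples, whereas the titles number them apart. Their median SD over genes was 0.207, 0.168 and 0.180, against 0.169 to 0.372 in the other groups. They were counted as separate samples, and calls lost when such samples were averaged into 1 are given beside the results; a lone sample was then taken to vary like the other groups. Wild-type Langerhans samples are titled as sorted for GFP, and the knockout samples are not. In such bulk RNA, fewer cells of a type and less RNA per cell cannot be told apart.

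Values are log2 signals, on which 1 unit is a 2-fold difference. Genes that passed 3.04, the median of all values, in 2 or more arrays were tested, 17099 in number. All 9 members passed, but several only through the groups in which they were high. Gzmd passed 3.04 in 4 arrays, Gzmk in 5, and Gzmf and Gzmg in 6 each, whereas Prf1 did so in 78. Irf8 could not check the genotype labels. Its level ran from 5.19 to 10.65 in knockout samples, against 2.57 to 9.95 in the wild type, and the labels do not say which stretch of the gene was removed. Genotypes are therefore those of the labels. Markers of residence were at their highest where the labels place them, with group means of 11.17 for P2ry12 in adult microglia, 10.33 for Clec4f in adult Kupffer cells and 11.60 for Cd207 in adult Langerhans cells.

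Gzmb, Gzmc, Gzmd, Gzme, Gzmf and Gzmg lie side by side with Gzmn on chromosome 14, within 144.7 kb (chr14:56117619-56262334, GRCm38.p6). Gzma (chr13:113093824-113100981) and Gzmk (chr13:113171630-113180965) are neighbours on chromosome 13, Prf1 lies at chr10:61297751-61304684 and Ncr1 at chr7:4337715-4345184. The sequences that differ between the granzymes high in A1 and Gzmb are given from RefSeq as the stretch from 200 to 21 bases before the annotated start, 5′ to 3′ on the minus strand. Capitals mark the longest run that the windows of Gzmc, Gzmd, Gzmf and Gzmg have in common.
Gzmd: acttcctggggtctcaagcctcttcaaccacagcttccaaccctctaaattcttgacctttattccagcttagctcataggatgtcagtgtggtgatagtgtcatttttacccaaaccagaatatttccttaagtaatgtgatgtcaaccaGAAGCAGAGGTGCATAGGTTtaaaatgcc
Gzmg: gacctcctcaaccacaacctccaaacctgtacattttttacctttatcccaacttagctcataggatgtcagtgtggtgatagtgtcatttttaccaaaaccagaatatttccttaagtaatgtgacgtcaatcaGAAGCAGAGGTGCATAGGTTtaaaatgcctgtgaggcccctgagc
Gzmf: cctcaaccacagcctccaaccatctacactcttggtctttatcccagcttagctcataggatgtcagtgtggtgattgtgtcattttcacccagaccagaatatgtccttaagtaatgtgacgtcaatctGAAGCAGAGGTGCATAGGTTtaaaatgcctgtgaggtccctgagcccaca
Gzmb: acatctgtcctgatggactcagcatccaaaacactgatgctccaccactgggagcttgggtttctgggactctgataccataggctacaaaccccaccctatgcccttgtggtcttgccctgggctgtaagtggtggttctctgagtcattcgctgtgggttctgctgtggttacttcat
These 4 stretches lie at chr14:56132614-56132793, chr14:56159600-56159779, chr14:56211428-56211607 and chr14:56262355-56262534 in that order. The run of 20 bases was found in 5 of 27025 promoter windows, those of Gzmc, Gzmd, Gzme, Gzmf and Gzmg. Over 200 bases before the start, Gzmc, Gzmd, Gzmf and Gzmg were 76.0% to 88.5% identical in pairs, and Gzmb matched them at 50.5% to 55.0%, within the 47.5% to 55.5% found between them and the members on other chromosomes. Gzmd and Gzme were 94.5% identical. The window of Gzmc lies inside the longest annotated span of its gene. Both strands of the 200 bases were searched for 5 motifs chosen after these sequences had been read. TGTGGT, a core bound by RUNX factors, occurred in 9 of the 10 members, all but Gzmk, against 11.3% of all windows. TGACGTCA, a cyclic AMP response element, occurred in Gzmc, Gzmf and Gzmg against 1.55%, and the core of the interferon-stimulated response element in Gzma alone against 2.33%. ACTTCC, an ETS core, occurred in 4 members against 16.9%, and TCACAC, a T-box core, in 3 against 9.88%. Such matches are descriptions of letters, and the related windows are not independent of each other.

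**Figure D1:**
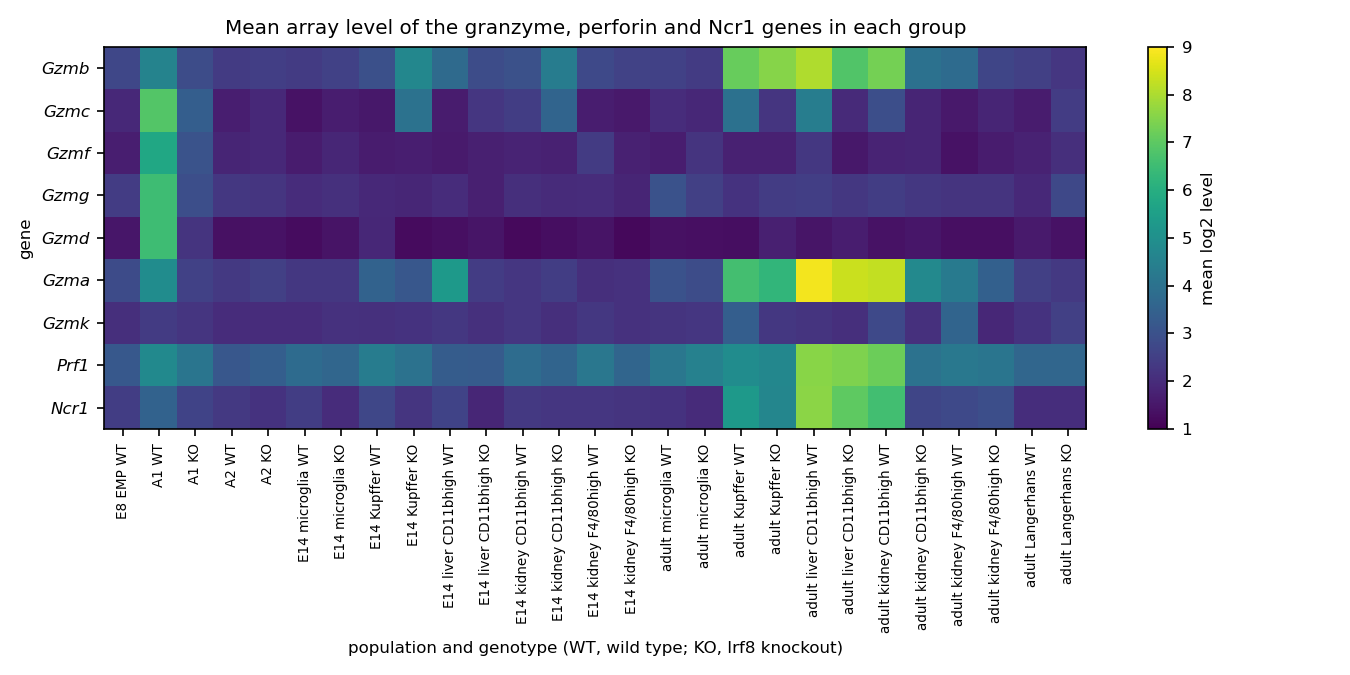
Mean log2 level (colour) of the 9 genes (rows) in each of the 27 groups (columns, by stage and genotype). Gzmc, Gzmf, Gzmg and Gzmd are brightest in wild-type A1. Gzma, Prf1 and Ncr1 are brightest in CD11bhigh macrophages of adult liver and of wild-type adult kidney, and Gzmb there and in adult Kupffer cells.

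The members fell into groups by where they were high. Gzma, Gzmb, Prf1 and Ncr1 had their highest group mean in wild-type adult liver CD11bhigh macrophages, at 8.85, 8.04, 7.57 and 7.62. Gzmc, Gzmd, Gzmf and Gzmg had theirs in wild-type A1, at 6.86, 6.52, 5.76 and 6.53. Gzmk had a top group mean of 3.58 in wild-type adult kidney F4/80high macrophages. Levels of different genes come from different probes and were not set against each other. Within the chromosome 14 cluster, Gzmd and Gzmg (r = 0.94), Gzmd and Gzmf (r = 0.94) and Gzmf and Gzmg (r = 0.92) ran closely together over the 27 group means, and Gzmb ran with Gzma (r = 0.92), with r = 0.10 to Gzmd of its own cluster. Gzmc stood between, with r = 0.70 to Gzmd and 0.47 to Gzmb. Wild-type A1 was the 1 group mean over 3.04 in Gzmd and in Gzmg, and Gzmf had 2 such means, both in A1, so that these 3 correlations restate the levels that picked the genes. All are descriptions over groups that share arrays and processing. Cross-hybridisation between the probes of these related genes was not tested.

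The genes whose pattern over the 27 group means was most like a member were picked by Pearson correlation. For Gzma they were Klrk1 (r = 0.96), which encodes the receptor NKG2D, then Ncr1, Klre1, Gm19585 and Gzmb (0.92). For Gzmb they were Ikzf3 (0.94), Il2rb (0.93), which encodes the beta chain of the interleukin 2 and 15 receptors, Gm4759, Gzma and Gm19585. For Gzmd they were Gzmg, Gzmf and Prg4 (0.93), the gene of the secreted lubricin, and then Parm1 (0.79) and Adamts3 (0.76), again through the wild-type A1 group. For Gzmk the nearest was Ccl8, at only 0.78.

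In the order of group means, most neighbours did not differ by more than the larger of their SDs. Of the 26 steps between neighbouring groups, this gap was passed at 3 steps for Gzma, 2 each for Gzmb, Gzmk, Prf1 and Ncr1, and 1 each for Gzmc, Gzmd, Gzmf and Gzmg. For the last 4 genes that includes the step down from wild-type A1.

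In Gzmc, Gzmd, Gzmf and Gzmg every wild-type A1 sample lay above every sample of the other 26 groups. Gzmd read 5.44, 7.78 and 6.34 in the 3 wild-type A1 samples and 3.18, 1.74 and 1.66 in the knockout samples, a difference of -4.32 ± 0.29 (SE). Gzmg read 5.94, 7.35 and 6.30 against 3.97, 2.42 and 2.41 (-3.60 ± 0.30), and in neither gene did any knockout sample reach the lowest wild-type sample. Both encode granzymes whose substrates are less well known than those of granzymes A and B. Gzmf read 5.40, 6.24 and 5.63 against 4.69, 2.91 and 1.54 (-2.71 ± 0.41). Gzmc read 6.83, 7.07 and 6.69 against 6.24, 2.31 and 1.60 (-3.48 ± 0.63). All SEs come from a fit in which the 27 groups share 1 spread per gene. Within A1 the SDs of wild type and knockout were 1.18 and 0.85 for Gzmd and 0.73 and 0.90 for Gzmg. For Gzmf they were 0.44 and 1.58, and for Gzmc 0.19 and 2.50. The SEs therefore understate the spread of the knockout A1 samples. The first knockout sample was the highest of the 3 in each of these 4 genes. Without it the differences were -4.82 ± 0.30 for Gzmd, -4.11 ± 0.30 for Gzmg, -3.53 ± 0.40 for Gzmf and -4.91 ± 0.58 for Gzmc. The probe that covers both Gzme and Gzmd read 3.83, 6.06 and 4.40 in wild-type A1, 2.34, 1.44 and 2.08 in the knockout and 1.42 to 1.68 in wild-type A2. Gzmn, which lies between Gzmg and Gzmf and was named after its values were seen, read 1.38 to 2.50 over the 6 A1 samples.

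The same 4 granzymes were near the bottom of the scale in the other yolk sac populations. In wild-type A2, Gzmd read 1.07, 1.64 and 1.37 and Gzmc 1.61, 1.64 and 1.75. In the E8 progenitors Gzmd read 1.56, 1.57 and 1.29 and Gzmc 1.82, 2.42 and 1.54. Wild-type A1 lay above A2 by 5.16 ± 0.29 in Gzmd, 5.19 ± 0.63 in Gzmc, 4.23 ± 0.30 in Gzmg and 3.92 ± 0.41 in Gzmf. Of the 9 members, 8 were higher in wild-type A1 than in A2 with no overlap of samples, all but Gzmk, against 17.5% of all genes tested. As the members were picked in A1, nothing is read from this share.

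**Figure D2:**
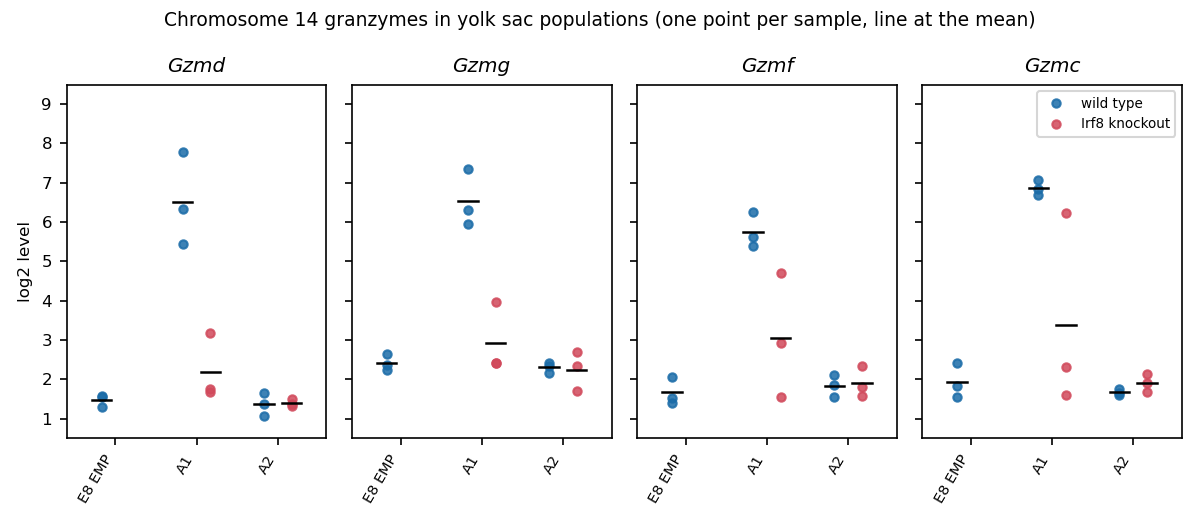
Log2 level of Gzmd, Gzmg, Gzmf and Gzmc (panels) in yolk sac populations (x axis), 1 point per sample, wild type in blue and Irf8 knockout in red, with a line at each mean. Wild-type A1 samples lie between 5.40 and 7.78, and 1 knockout A1 sample reaches 6.24 in Gzmc. The E8 and A2 samples lie under 3.04.

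The members typical of natural killer cells had their highest levels in adult tissues and were also above 3.04 in part of the A1 samples. Gzma read 3.93, 4.94 and 5.78 in wild-type A1 and 2.26, 2.93 and 2.49 in the knockout (-2.32 ± 0.46), and Gzmb read 4.39, 4.86 and 4.49 against 3.60, 2.72 and 2.24 (-1.73 ± 0.58). Both sets of samples were apart. Prf1 read 4.43, 4.93 and 5.01 against 4.57, 3.50 and 4.28, and Ncr1 read 2.90, 3.00 and 4.69 against 3.30, 2.83 and 1.72, with overlap in both. Altogether 6 of the 9 members were lower in knockout A1 with no overlap, against 12.4% of all genes, and 0 were higher, against 12.5%. Without the first knockout sample 8 were lower. These counts rest on the contrast that picked the genes.

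Wild-type A1 sample 3 was the highest in Gzma, Ncr1 and Prf1, whereas sample 2 was the highest in Gzmb, Gzmc, Gzmd, Gzmf and Gzmg. Sample 3 also led in Klrk1, at 5.07 against 2.36 and 2.85, in Il2rb, at 6.24 against 4.32 and 4.83, and in Cd3e, at 4.48 against 2.38 and 3.53. Klrb1c, which encodes the NK1.1 antigen and was named after its values were seen, lay between 2.40 and 2.63 in wild-type A1. Eomes lay between 2.51 and 2.90 there, and both were under 3.04. Klrd1 and Tbx21, also natural killer markers, are not given for A1, and whether such cells were present was not tested. The mean level of 18 decidua and trophoblast markers was 1.92 to 2.01 in wild-type and 1.93 to 2.04 in knockout A1, and 0 of them had a group mean over 5. The mean of 13 progenitor markers was 7.16 to 7.41 against 6.89 to 7.08.

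Among genes that were no members, macrophage markers moved with genotype in A1. Of 9, 7 fell in the knockout and 0 rose, with a median of -1.74 against 0.01 over all genes, and 3.36% of all genes were called in A1. Adgre1, which encodes F4/80, fell by 2.66 ± 0.26 (limma adjusted p = 1.35e-11) and Cd68 by 1.74 ± 0.18 (limma adjusted p = 4.06e-11). Of 13 yolk sac endoderm markers 3 rose and 0 fell, among them Afp (1.92 ± 0.52, limma adjusted p = 0.0201, not called in 3 of 16 alternatives, at 0.413 without knockout sample 3). The count was 0 without wild-type sample 2 or 3 and 1 without knockout sample 3. Their mean level was 3.04 to 3.19 in wild-type and 3.64 to 4.74 in knockout samples. The part that these shifts have in the granzyme differences was not tested.

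Genes of granule loading and exocytosis fell in part in A1. Of 13, 3 fell and 0 rose (median -0.39): Lamp1 by 0.54 ± 0.10 (limma adjusted p = 6.85e-05), Ctsc, the dipeptidyl peptidase that activates granzymes, by 0.75 ± 0.17 (limma adjusted p = 0.00192), and Ctsh by 1.35 ± 0.35 (limma adjusted p = 0.0149). Ctsc and Ctsh lost their calls without knockout sample 3, at 0.107 and 0.218, which left 1 of the 13, and Ctsh also without wild-type sample 3. Of 31 natural killer receptor and signalling genes 1 fell, the chemokine gene Ccl5 (-2.54 ± 0.66, limma adjusted p = 0.0131, at 0.224 without wild-type sample 3 and 0.191 without knockout sample 3), and 0 rose, with a median of -0.23. Without wild-type or knockout sample 1 the count that fell was 2, and with array weights it was 4.

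In adult kidney CD11bhigh macrophages Gzma, Gzmb, Prf1 and Ncr1 were high in the wild type. Gzma read 7.77, 8.39 and 8.62 in the wild type and 4.90, 4.35 and 5.01 in the knockout (-3.51 ± 0.46). Gzmb read 6.45, 8.22 and 7.34 against 4.49, 4.49 and 2.94 (-3.36 ± 0.58). Every wild-type sample lay above every knockout sample in both genes, the best-studied cytotoxic granzymes. Prf1 read 6.12, 7.32 and 8.19 against 4.48, 3.96 and 3.57 (-3.21 ± 0.33), and Ncr1 read 5.90, 6.81 and 7.04 against 3.34, 2.46 and 2.18 (-3.93 ± 0.46). The first wild-type sample was the lowest of the 3 in all 4 genes. The SD of Prf1 in the wild type was 1.04, a spread that its SE understates. Gzmk was also apart at low levels, with 3.03, 2.65 and 2.62 against 2.42, 1.84 and 2.04 (-0.67 ± 0.26). Gzmd, Gzmf and Gzmg stayed under 3.04 in all 6 samples, and Gzmc reached 5.03 in 1 wild-type sample and 2.22 or less in the other 5. In all, 5 of the 9 were lower with no overlap, against 7.68% of all genes, and 0 were higher, against 9.91%, in a contrast that also picked the genes.

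**Figure D3:**
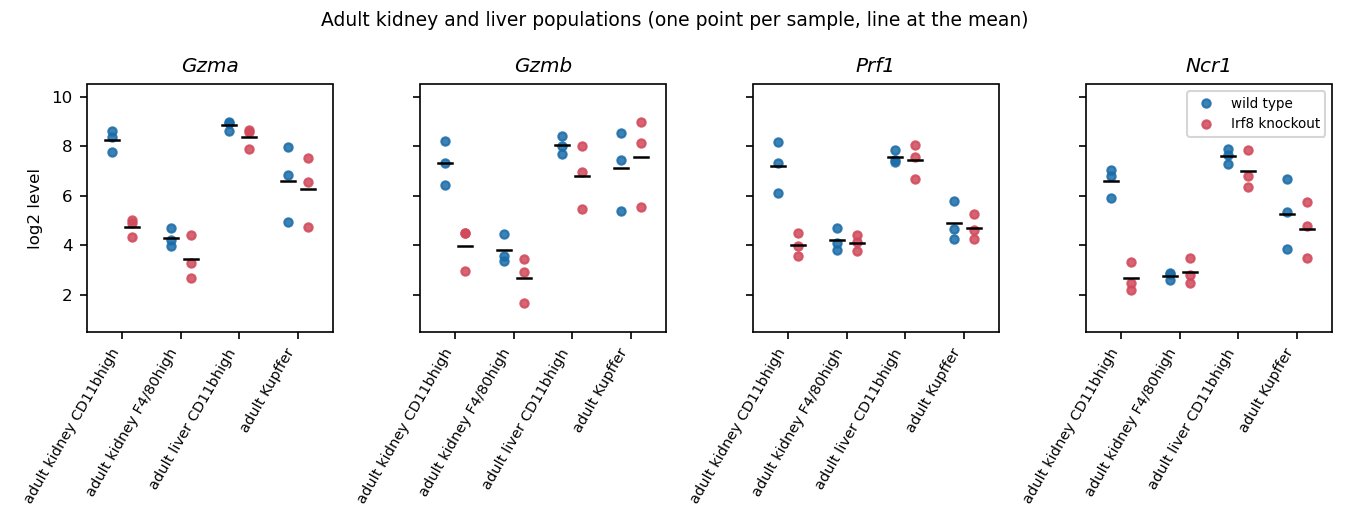
Log2 level of Gzma, Gzmb, Prf1 and Ncr1 (panels) in 4 adult populations (x axis), 1 point per sample, wild type in blue and Irf8 knockout in red, with a line at each mean. In kidney CD11bhigh macrophages every knockout sample lies below the wild type, and in liver CD11bhigh macrophages the genotypes overlap in all 4 genes.

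Receptor genes of natural killer cells fell in the same knockout samples. Of a list of 31 receptor and signalling genes, 14 fell and 0 rose (median -0.99 against -0.01 over all genes), where 13.6% of all genes were called in either direction. This list and the others were chosen with earlier results of these data known, so their counts are not independent of the data. Klre1, a lectin-like receptor gene, fell by 2.78 ± 0.40 (limma adjusted p = 4.33e-07) and Klrg1 by 2.45 ± 0.31 (limma adjusted p = 3.42e-08). Klra9, of the Ly49 receptor family, fell by 3.61 ± 0.46 (limma adjusted p = 3.67e-08) and Ifng, the interferon gamma gene, by 2.12 ± 0.35 (limma adjusted p = 7.21e-06). In a fit of the 2 kidney groups alone the count was 3, and Klrg1, Klra9 and Ifng lost their calls, at 0.078, 0.0979 and 0.058. Klrd1, named after its values were seen, was higher in every knockout sample, at 9.20, 9.54 and 9.29 against 8.11, 8.16 and 8.47, and was not called (limma adjusted p = 0.151). Its product CD94 pairs with NKG2 receptors on natural killer cells.

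Of 13 genes of granule loading and exocytosis, 5 fell and 0 rose (median -0.37), among them Fasl (-2.72 ± 0.45, limma adjusted p = 7.96e-06) and Nkg7 (-2.21 ± 0.53, limma adjusted p = 0.00219). In the fit of the kidney groups alone the count was 1, and Nkg7 stood at 0.0506. Of 12 transcription factor genes of cytotoxic lymphocytes, 5 fell and 0 rose (median -0.75). Nfil3 fell by 1.87 ± 0.25 (limma adjusted p = 8.13e-08), Ikzf3 by 1.93 ± 0.32 (limma adjusted p = 9.48e-06), Tbx21 by 1.16 ± 0.35 (limma adjusted p = 0.017) and Eomes by 1.12 ± 0.37 (limma adjusted p = 0.0305). None of these 4 was called in the fit of the kidney groups alone, where they stood at 0.0501, 0.106, 0.308 and 0.422. Without wild-type sample 3, or without any 1 of the 3 knockout samples, 3 of the 12 fell. Serpinb9b, a relative of the granzyme B inhibitor gene Serpinb9, fell by 2.21 ± 0.32 (limma adjusted p = 7.75e-07) and was the 1 inhibitor gene of 6 tested that fell.

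Markers of other cells moved with genotype in these kidney samples. The mean of 16 neutrophil and mast cell markers was 2.99 to 3.90 in the wild type and 6.33 to 6.73 in the knockout, and 9 of them rose and 0 fell. Ltf, a neutrophil granule gene, rose by 6.58 ± 0.65 (limma adjusted p = 9.67e-11). The mean of 10 tubule markers was 6.57 to 9.34 in the wild type and 5.12 to 6.93 in the knockout, and 5 fell. In a fit of the kidney groups alone 0 of the tubule markers fell, with array weights or without wild-type sample 1 it was 3, and without wild-type sample 3 or knockout sample 1 it was 9 and 8. The mean of 19 T cell markers overlapped, at 3.56 to 3.79 against 3.18 to 3.71, and 2 of them fell, 0 in the fit of the kidney groups alone or with array weights and 1 without wild-type sample 2 or knockout sample 1. The part of these shifts in the lower granzyme levels was not tested.

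In adult kidney F4/80high macrophages the cytotoxic genes were lower than in the CD11bhigh gate already in the wild type, 4 of 9 members with no overlap against 11.1% of all genes. The adult kidney arrays served to pick the genes, so nothing is read from this share or from that by genotype. Gzma read 3.97, 4.19 and 4.68 in the wild type, 3.98 ± 0.46 below the CD11bhigh gate, and 4.40, 3.27 and 2.67 in the knockout. Only Gzmk was apart, with 2.98, 3.45 and 4.31 against 1.77, 2.24 and 1.65 (-1.69 ± 0.26), which is 1 of 9 members against 9.56% of all genes. Without knockout sample 1 the count was 3 and without wild-type sample 2 it was 2. Gzmk encodes a granzyme common in memory T cells. The mean of 19 T cell markers was 4.53 to 4.86 in the wild type and 3.54 to 4.14 in the knockout, and 4 fell and 0 rose, where limma called 3.56% of all genes, among them Cd3g (-1.76 ± 0.46, limma adjusted p = 0.0132, at 0.106 in a fit of the 2 groups alone). That fit called 1 of the 19, as did leaving out sample 3 of either genotype, and Cd8a, Cd8b1 and Themis also lost their calls in it. With array weights 6 fell. Their part in the Gzmk difference was not tested.

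The 10 other populations did not serve to pick the genes. Over them and 9 members, 6 of 90 limma tests passed an adjusted p of 0.05, 3 higher and 3 lower in the knockout, against 14.8% of the tests of all genes. In 56 of the 90 no sample of either genotype passed 3.04, among them all 10 tests of Gzmd, 8 each of Gzmf and Gzmg and 9 of Gzmk, so a low count says little about these genes. A replicate block gave 11 calls, and averaging the same-numbered E14 samples gave 4. In A2 (10% of all genes called), adult microglia (14.6%), E14 microglia (14.3%), E14 kidney CD11bhigh macrophages (14%) and E14 kidney F4/80high macrophages (1.97%) 0 members were called by limma, and 1 had an unadjusted p under 0.05, Gzmb in E14 kidney CD11bhigh macrophages.

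Adult liver CD11bhigh macrophages are the population nearest in label to those of the kidney. Gzma read 8.61, 8.95 and 8.97 in the wild type and 7.90, 8.64 and 8.57 in the knockout, a difference of -0.48 ± 0.46 (limma adjusted p = 0.607). Gzmb read 8.42, 8.02 and 7.67 against 5.48, 8.02 and 6.96 (-1.22 ± 0.58, limma adjusted p = 0.168), the first knockout sample being the lowest. Prf1 read 7.46, 7.86 and 7.38 against 6.70, 8.05 and 7.58, and Ncr1 7.66, 7.91 and 7.27 against 6.35, 7.85 and 6.80. Each of these genes overlapped between genotypes, and none was called. The difference between the kidney and liver effects was not tested, because the kidney contrast picked the genes.

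Gzmc was the member called by genotype in adult liver CD11bhigh macrophages. It read 5.37, 4.27 and 3.57 in wild-type CD11bhigh macrophages and 1.71, 2.16 and 2.03 in the knockout, and fell by 2.44 ± 0.63 (limma adjusted p = 0.00298). It was 1 of 9 members called there, against 16.8% of all genes. Of 31 natural killer receptor genes 4 fell and 1 rose (median -0.32), among them Il12rb2 (-0.95 ± 0.27, limma adjusted p = 0.00698), and Klrb1f rose by 1.27 ± 0.39 (limma adjusted p = 0.0143). The number that fell was 0 without knockout sample 1, 2 without wild-type sample 1 and 9 without knockout sample 2, and the number that rose was 0 without sample 2 of either genotype. Of 16 neutrophil and mast cell markers 9 rose, with means of 4.40 to 5.58 against 7.68 to 7.95, and of 7 B cell markers 7 rose, or 4 without knockout sample 2 or 3. Their part in the Gzmc difference was not tested.

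In adult Kupffer cells the members varied widely between samples of 1 genotype. Gzma read 6.84, 7.99 and 4.96 in the wild type and 4.74, 6.57 and 7.53 in the knockout, and Gzmb 7.45, 8.54 and 5.40 against 5.55, 8.14 and 8.97. Only Gzmk was called, at 3.16, 3.74 and 3.27 against 2.17, 2.13 and 2.56 (-1.11 ± 0.26, limma adjusted p = 0.00209), 1 of 9 against 11.9% of all genes. Gzmk passed 3.04 in 5 arrays, and these 3 wild-type samples are among them. The call was lost with array weights, in a fit of the 2 groups alone and with a replicate block, with an adjusted p of up to 0.2. Among natural killer receptor genes Klrk1 fell by 1.93 ± 0.44 (limma adjusted p = 0.00153), which did not hold in a fit of the 2 groups alone (0.16). In Langerhans cells Gzmg read 1.98, 3.22 and 3.01 in the knockout and 2.02, 2.08 and 1.66 in the wild type (0.81 ± 0.30, limma adjusted p = 0.0319), the 1 of 9 members called, against 27% of all genes. Nothing is read from that call, since Gzmg was tested because of its A1 level, 1 of the 6 Langerhans samples passed 3.04, the genotypes overlapped and the call was lost in 5 of 16 alternatives.

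**Figure D4:**
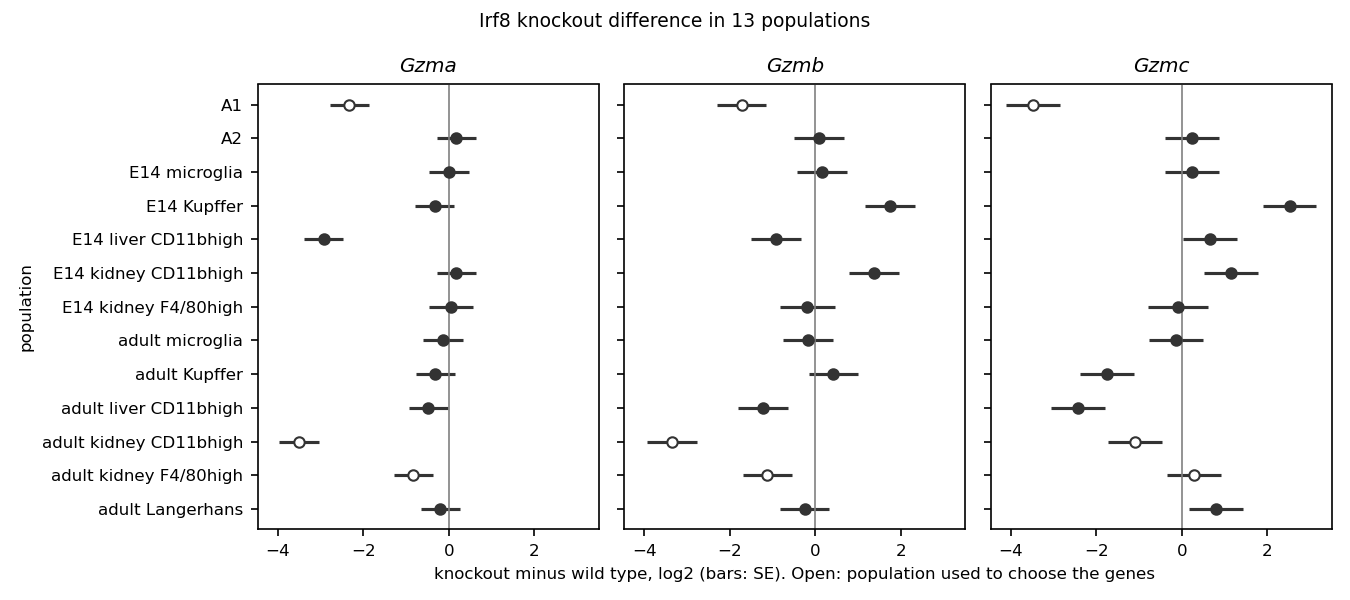
Knockout minus wild type (x axis, log2, bars ± SE of the limma fit) of Gzma, Gzmb and Gzmc (panels) in 13 populations (y axis); open points mark populations that served to choose the genes. Among filled points, Gzma is lowest in E14 liver CD11bhigh macrophages at -2.93, and Gzmc runs from -2.44 in adult liver CD11bhigh macrophages to 2.52 in E14 Kupffer cells.

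At E14 Gzma fell in one liver population and Gzmb and Gzmc rose in the other. In CD11bhigh macrophages Gzma read 5.07, 5.39 and 5.58 in the wild type and 2.44, 2.41 and 2.39 in the knockout, and fell by 2.93 ± 0.46 (limma adjusted p = 1.98e-06, and 0.00456 with same-numbered samples averaged). It was 1 of 9 members called, against 14% of all genes. Gzmb read 3.49, 3.30 and 4.51 against 3.11, 2.05 and 3.37 and was not called, and Ncr1 lay under 3.04 in both genotypes. Of the 16 neutrophil and mast cell markers 4 fell, Mcpt8, Prss34, Cpa3 and Ms4a2, and 1 rose, the neutrophil gene Retnlg (4.19 ± 0.69, limma adjusted p = 4.72e-06). In a fit of the 2 groups alone 8 fell and 5 rose. Mcpt8, a basophil protease gene on chromosome 14 beyond Gzme (chr14:56082163-56085499), fell by 4.85 ± 0.42 (limma adjusted p = 2.12e-14), from 9.02, 8.83 and 9.04 to 3.08, 3.66 and 5.60. Prss34, another basophil and mast cell protease gene, fell by 3.78 ± 0.37 (limma adjusted p = 3.56e-12) and Cpa3, a mast cell and basophil carboxypeptidase gene, by 2.90 ± 0.45 (limma adjusted p = 1.23e-06).

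Of the 31 natural killer receptor genes 3 fell and 3 rose in that population (median -0.13), Klrk1 by 2.31 ± 0.44 (limma adjusted p = 8.69e-05), from 4.19, 3.29 and 4.27 to 1.82, 1.58 and 1.42. The number that rose was 1 without wild-type sample 1 or knockout sample 2, and the number that fell was 6 with array weights and 7 in a fit of the 2 groups alone. With the same-numbered samples averaged 1 fell and 0 rose. Ctsc fell by 2.33 ± 0.17 (limma adjusted p = 2.15e-17). The 16 neutrophil and mast cell markers averaged 8.23 to 8.37 in the wild type and 7.59 to 8.06 in the knockout. The 9 macrophage markers averaged 6.81 to 6.98 against 5.30 to 5.70. The part of these shifts in the Gzma difference was not tested.

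In E14 Kupffer cells Gzmb and Gzmc rose. Gzmc read 1.74, 1.38 and 1.41 in the wild type and between 3.87 and 4.22 in the 3 knockout samples (2.52 ± 0.63, limma adjusted p = 0.00174). Gzmb read 3.23, 3.12 and 2.50 against 4.70, 5.15 and 4.24 (1.75 ± 0.58, limma adjusted p = 0.0213). No knockout sample overlapped the wild type in either gene, and 2 of 9 members were called, against 23% of all genes. The Gzmb call was lost without wild-type sample 3 or knockout sample 1 or 2, with an adjusted p of up to 0.0979. With the 3 same-numbered wild-type samples averaged neither gene was called, at 0.224 for Gzmb and 0.083 for Gzmc. Gzma read 4.04, 2.16 and 4.32 against 2.91, 3.50 and 3.13, and Gzmd, Gzmf and Gzmg stayed under 3.04.

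Progenitor genes rose in the same E14 Kupffer samples. Cd34 rose by 2.48 ± 0.30 (limma adjusted p = 2.32e-09) and Kit, the stem cell factor receptor gene, by 2.13 ± 0.31 (limma adjusted p = 2.1e-07). The 13 progenitor markers averaged 6.10 to 6.52 in the wild type and 6.72 to 7.31 in the knockout, and 5 rose and 0 fell, or 3 without knockout sample 1 and 2 with the wild-type samples averaged. Of 31 natural killer receptor and signalling genes 6 rose and 4 fell (median 0.03), Sh2d1b1 by 2.27 ± 0.37 (limma adjusted p = 2.88e-06) and Cd27 by 1.94 ± 0.33 (limma adjusted p = 4.75e-06). The number that fell was 1 without knockout sample 2 and 2 without knockout sample 3 or wild-type sample 1, and with the wild-type samples averaged 3 rose and 0 fell. Of 12 transcription factor genes 6 rose and 1 fell, with Tox up by 2.75 ± 0.39 (limma adjusted p = 1.05e-07). The 9 macrophage markers averaged 9.18 to 9.46 against 7.59 to 7.93, and 8 of them fell, or 5 with the wild-type samples averaged. The part of these shifts in the rise of Gzmb and Gzmc was not tested.

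**Figure D5:**
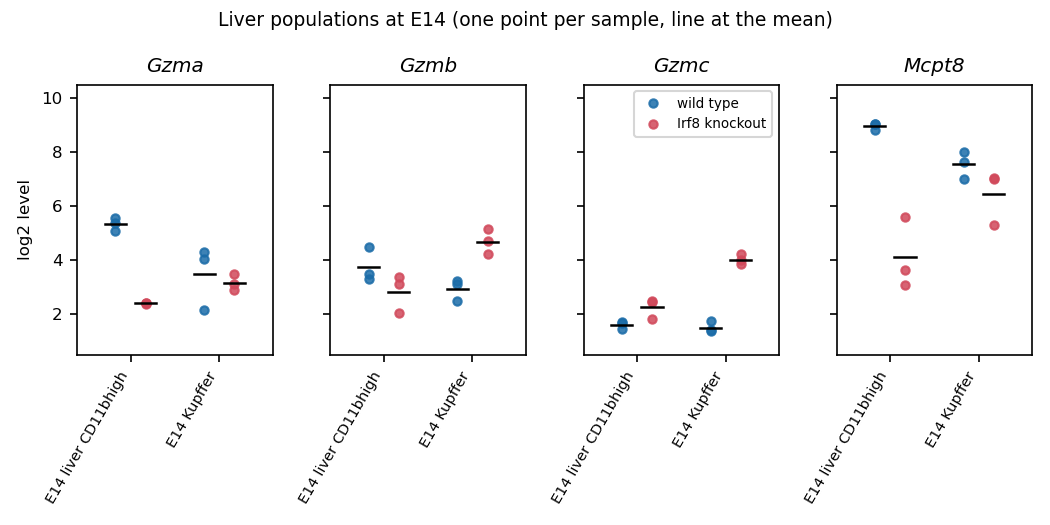
Log2 level of Gzma, Gzmb, Gzmc and the basophil protease gene Mcpt8 (panels) in 2 liver populations of E14 (x axis), 1 point per sample, wild type in blue and Irf8 knockout in red, with a line at each mean. In CD11bhigh macrophages Gzma and Mcpt8 are lower in every knockout sample, and in Kupffer cells Gzmb and Gzmc are higher.

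The E14 kidney CD11bhigh macrophages had no member past the threshold. Gzmb read 3.49, 2.71 and 2.75 in the wild type and 5.23, 2.96 and 4.91 in the knockout, and Gzmc 2.20, 3.06 and 2.05 against 4.61, 3.91 and 2.23. The genotypes overlapped in both genes, and 0 of 9 members were called there by limma, against 14% of all genes.

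Within liver, the members were compared by sort gate and age. Over 5 comparisons that share samples, 18 of 45 tests were called, against 29.1% of all tests in either direction. Of the 18, 16 were higher and 2 lower in the CD11bhigh or adult group. Gzmd and Gzmg stayed under 3.04 in all these samples and Gzmf passed it in 1, so their tests say little. In wild-type adults Gzma was 2.25 ± 0.46 higher in CD11bhigh macrophages than in Kupffer cells (limma adjusted p = 7.71e-05), Prf1 2.67 ± 0.33 (limma adjusted p = 9.97e-10) and Ncr1 2.33 ± 0.46 (limma adjusted p = 3.98e-05). Gzmk was lower by that gate (-1.20 ± 0.26, limma adjusted p = 0.000207), and Gzmb did not pass (0.91 ± 0.58, limma adjusted p = 0.275). Gzmk passed the median of all values in only 5 arrays, and the 3 wild-type adult Kupffer samples (3.16, 3.74 and 3.27) are among them. All wild-type adult CD11bhigh samples lay under that median, at 2.19, 2.51 and 1.88. How far Gzmk was lower there could therefore not be measured. Gzma, Prf1, Ncr1 and Gzmk were the 4 of 9 members called, against 28% of all genes. The knockout gave 3 of 9 against 39.7%, with Gzma 2.09 ± 0.46, Prf1 2.74 ± 0.33 and Ncr1 2.33 ± 0.46 higher. In adult Kupffer cells the SD of Gzma was 1.53 in the wild type and 1.41 in the knockout. That of Prf1 was 0.79 and 0.52. The SEs of these adult gate comparisons therefore understate the spread of the Kupffer samples in both genes.

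From E14 to adult, wild-type liver CD11bhigh macrophages gained 5 of the 9 members, against 34.3% of all genes called. Ncr1 was 5.02 ± 0.46 higher (limma adjusted p = 2.48e-14), Gzmb 4.27 ± 0.58 (limma adjusted p = 9.64e-09), Prf1 4.24 ± 0.33 (limma adjusted p = 6.04e-17), Gzma 3.50 ± 0.46 (limma adjusted p = 3.91e-09) and Gzmc 2.79 ± 0.63 (limma adjusted p = 0.000247). In the knockout the same genes other than Gzmc were called, 4 of 9 against 18.8%, with Gzma 5.96 ± 0.46 higher. Gzmc was not (-0.31 ± 0.63, limma adjusted p = 0.818). It lay under 3.04 in every knockout sample of both ages, so a difference below that level could not have been measured. At E14 the wild-type gate gave 2 of 9 against 24.6%, Gzma being 1.84 ± 0.46 higher in CD11bhigh cells (limma adjusted p = 0.00143) and Prf1 1.02 ± 0.33 lower (limma adjusted p = 0.0162). The Gzma call was lost without wild-type Kupffer sample 2 (0.0797), the Prf1 call without Kupffer sample 1 or CD11bhigh sample 3, and both with same-numbered samples averaged (0.175 and 0.46).

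The knockout effect of Gzma differed with age in liver CD11bhigh macrophages, being -0.48 in adults and -2.93 at E14, a difference of 2.45 ± 0.65 (limma adjusted p = 0.00529). That call was lost with the same-numbered E14 samples averaged, at 0.0565. For Gzmc it was -2.44 in adults and 0.66 at E14, a difference of -3.10 ± 0.89 (limma adjusted p = 0.0108), which missed the threshold without wild-type adult sample 1 (0.0544) and with same-numbered samples averaged (0.145). Gzmc lay under 3.04 in all 6 E14 samples, so a fall at E14 could not have been measured and nothing is read from this difference. These were 2 of 9 members against 14.5% of all genes, and without wild-type adult sample 2 the pooled count over both differences was 3. Between adult liver CD11bhigh macrophages and Kupffer cells 0 of 9 differences were called by limma, against 13.3% of all genes, and 1 had an unadjusted p under 0.05. The nearest was Gzmk, at 1.00 ± 0.37 (limma adjusted p = 0.0622). Gzmk lay under 3.04 in all 6 adult liver CD11bhigh samples, where a fall could not have been measured. Nothing is read from its difference. Over both differences 2 of 18 tests were called, against 13.9% of the tests of all genes.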

How the data were processed

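RNA of sorted cells was amplified with the Ovation PicoSL WTA V2 kit and hybridised to Affymetrix arrays, after collagenase digestion and, for skin and liver, dispase and DNase, per the labels' protocols. The deposited values are on a log2 scale; the submitters' processing notes name RMA and Affymetrix Expression Console. For their versions and the genome build: not given in the sources used here. Array medians ran from 2.94 to 3.19, and precision is limited by how many arrays a group has. Of 41345 probes, 23521 had 1 gene symbol, 1814 had several and 16010 were not in the annotation table; the brightest probe with 1 symbol stood for a gene. The 2 runs of A2 knockout replicate 2 were averaged.

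A mean per group was fitted over 80 samples with limma 3.58.1 in R 4.3.3 (53 residual degrees of freedom), with a variance trend, two-sided moderated tests and Benjamini-Hochberg adjustment over 17099 genes at 0.05. Simulated shifts of 1 and 2 log2 units in the adult liver CD11bhigh comparison, 100 genes each of 17099, were recovered for 61% and 91%. In that simulation 9 unshifted genes were called. Its noise was normal with 1 SD per gene in all groups, whereas spreads differ between groups in the data. The recovery is therefore a check of the fit and not the power for a given gene. The members and gene lists were chosen with earlier results of these data known. Named were all members, the 4 genes of each list with the smallest adjusted p in a comparison, the 5 genes most correlated with Gzma, Gzmb, Gzmd and Gzmk, Irf8 and defining markers; Klrb1c, Klrd1 and Gzmn were named after their values were seen. Promoter windows and positions are RefSeq's for GRCm38.p6, read with Python 3.11.15 and pandas 2.3.3, and matched all 10 members. Alternatives were other normalizations, filters, array weights, a fit of the compared groups alone, a replicate block, single runs, leaving out each replicate and, chosen after seeing the data, averaging samples whose descriptions carry the same replicate number.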

Additional observations from a re-analysis of the deposited data

Results flagged for a closer look

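The difference of knockout effects, adults minus E14, was 2.45 on the log2 scale for Gzma in liver CD11bhigh macrophages. Gzma fell at E14 and was not called by genotype in adults. The difference itself passed the test (limma adjusted p = 0.00529). It kept its direction in all 22 alternatives and missed the threshold in 1, with same-numbered E14 samples averaged (0.0565). For Gzmc the same difference was -3.10 (limma adjusted p = 0.0108), and it missed the threshold in 2 of 22 alternatives. Gzmc was under 3.04 in all 6 samples at E14, where a fall could not have been measured. The probe annotated to both Gzme and Gzmd, which enters no comparison, had a mean of 4.76 in wild-type A1 and 1.51 in wild-type A2. Groups held at most 3 samples, so single samples were not tested as outliers.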

How the results depend on the processing

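Of 26 called results on the members, 18 kept their direction and their side of the threshold under every alternative run, and no result turned direction. Of 101 called genes of the lists, 49 did so and 52 lost their call under 1 or more. The 6 calls over 10 populations became 11 with a replicate block, 4 with same-numbered E14 samples averaged (an alternative chosen after seeing the data), and 5 to 7 without 1 replicate. The 18 calls in liver ran from 17 to 19 and the 2 differences of effects from 1 to 3 without 1 replicate, and averaging gave 0 of the latter. Without 1 replicate, the median difference of the members ran from -2.80 to -1.88 in A1, from -1.69 to -0.74 in adult kidney CD11bhigh macrophages and from -0.15 to 0.03 in the F4/80high ones; over the members left by a filter at the 75th percentile it was -2.15 in the CD11bhigh ones, against -1.09.

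In adult kidney CD11bhigh macrophages, a fit of the compared groups alone gave 3 natural killer receptor genes lower (1 higher), 1 granule loading gene and 0 transcription factor genes, the replicate block 2, 0 and 0, and array weights 2 for each of the last lists; without 1 replicate the counts were 10 to 16, 4 to 5 (0 to 1 higher) and 3 to 4. For the receptor genes, adult liver CD11bhigh gave 2 higher with the compared groups alone, 3 higher and 7 lower with the block, and 0 to 1 higher and 0 to 9 lower without 1 replicate. A1 gave 1 higher with the compared groups alone, 4 lower with array weights, 2 lower with the block and 0 to 2 lower without 1 replicate. E14 liver CD11bhigh gave 5 higher and 7 lower with the compared groups alone, 6 and 7 with the block, 6 lower with array weights, 0 and 1 with averaging, and 1 to 3 higher and 2 to 3 lower without 1 replicate, and E14 Kupffer cells 3 and 0 with averaging, and 4 to 6 higher and 1 to 3 lower without 1 replicate. In A1 the granule loading genes gave 1 higher with the compared groups alone and with the block, and 1 to 3 lower without 1 replicate. The causes were not tested.

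In no comparison did the deviations of every same-numbered pair correlate over 0.1, so the numbers were not taken to pair samples. The nearest was the wild-type adult kidney gate, at 0.0963 to 0.386, and whether its sorts share animals is not given in the labels. Median centring moved the median of all genes by up to 0.11. The alternative with other probes of a member was not run, because no member has a further probe with 1 symbol. Levels near or under 3.04 leave small differences undetectable.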
